A study of Oryza sativa with 8 samples.

Results

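Neighbouring binding sites of the rice transcription factor ABERRANT PANICLE ORGANIZATION2 (APO2) are regions with ChIP peaks, separated by no more than 10 kb. Such regions need not have peaks in the same replicates. Peaks of 4 ChIP replicates were merged where they shared 1 bp or more, which gave 4076 regions. A region was kept if it held peaks of at least 2 replicates and lay outside 6 dense blocks of peaks, on chromosomes 1, 2, 4, 8, 10 and 12, and 1418 regions were kept. Of these, 367 had the edge of another kept region within 10 kb and are called neighbouring (25.9% of the kept regions). The other 1051 are called solitary. The members were thus chosen by measured peak positions and by the number of replicates with a peak, and neither is a finding below.

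APO2, also known as RFL, is the rice orthologue of LEAFY, a plant-specific transcription factor. In Arabidopsis, LEAFY turns a meristem into a flower and acts with the F-box protein UFO. In rice, APO2 acts in the young inflorescence together with APO1, the orthologue of UFO, and keeps branch meristems from ending early, which sets the branching of the panicle. LEAFY binds DNA as a dimer through its C-terminal domain, and in Arabidopsis its N-terminal domain lets dimers assemble into larger complexes on DNA that carries more than a single site. Sites that lie side by side are therefore of interest for a protein of this family.

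Chromatin came from young inflorescence meristems and was precipitated with an antibody against GFP, labelled ab290, ab291, ab292 and ab293 in replicates 1 to 4. Whether these consecutive numbers stand for different antibodies is not stated. The labels also list 4 input samples without antibody, which were not analysed here. The genotype, the tagged transgene and its promoter, and any separate plants behind the replicates are not stated in the labels, so values describe the spread among these 4 libraries. No immunoprecipitation without a tagged protein is among the samples. Outside the dense blocks the lists held 1156, 517, 3094 and 1779 peaks in replicates 1 to 4, and total reads per library are unknown. Positions are on IRGSP-1.0, counted from 1, and the genes and sequences at them were not analysed here.

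Neighbouring regions were mostly pairs. They formed 149 groups with 218 adjacent pairs of regions: 119 groups had 2 members, 15 had 3, 10 had 4, 3 had 5, and 2 groups had 12 and 17. Thus 238 of the 367 regions (64.9%) were in groups of 2. The gap between partners ran from 225 to 9931 bp, with quartiles of 802, 2080 and 5043 bp. In 64 adjacent pairs the gap was at most 1 kb, and in 107 it was at most 2 kb. Between consecutive kept regions, gaps of up to 2 kb numbered 107, those of 2 to 4 kb 36, those of 4 to 6 kb 34, those of 6 to 8 kb 20 and those of 8 to 10 kb 21. Each of the 45 bins of the same width from 10 to 100 kb held 2 to 19 gaps, with a median of 9. The limit of 10 kb thus cuts the foot of a steep fall in the number of gaps and no break in it.

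**Figure D1:**
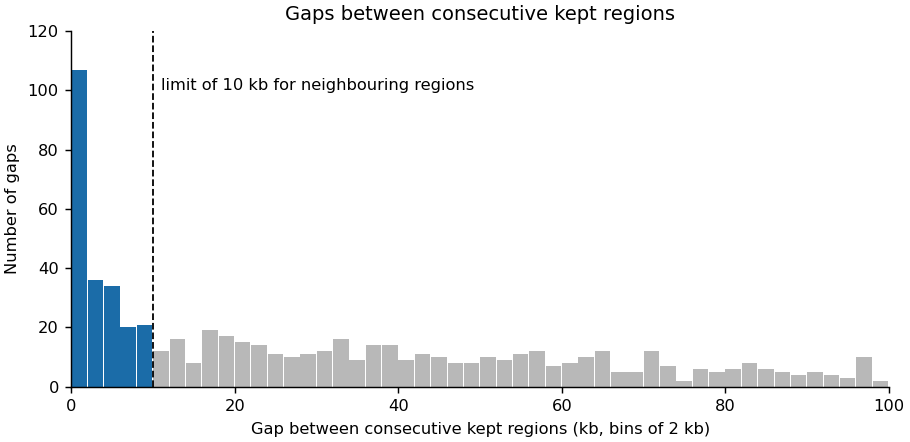
Number of gaps between consecutive kept regions, in bins of 2 kb up to 100 kb; blue bars lie within the 10 kb limit, grey bars beyond it. The first bin holds 107 gaps, and no bin beyond the limit holds more than 19.

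The 3 pairs nearest to the limit on each side had similar numbers of lists, too few pairs for a general statement. The 3 widest gaps inside were 9775, 9866 and 9931 bp, on chromosomes 2, 8 and 4, with 2 and 2, 3 and 4, and 3 and 3 lists in the partners. The 3 narrowest gaps outside were 10009, 10294 and 10519 bp, on chromosomes 2, 9 and 4, with 2 and 2, 3 and 4, and 2 and 3 lists. The number of members depended most on replicates 3 and 4: it was 184 without replicate 3 and 175 without replicate 4, but 319 without replicate 1 and 360 without replicate 2. It was 152 when peaks of at least 3 lists were required and 125 when only peaks with a −log10 q of at least 10 were used.

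Counts within single lists use the same peak positions as the rule and are a description. Of the peaks outside the dense blocks, 253 in replicate 1 (21.9%), 78 in replicate 2 (15.1%), 1220 in replicate 3 (39.4%) and 533 in replicate 4 (30.0%) had another peak of the same list within 10 kb. The share was lowest in the shortest list and highest in the longest.

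Of the neighbouring regions, 238 held a peak of replicate 1, 117 of replicate 2, 350 of replicate 3 and 350 of replicate 4. These were 64.9, 31.9, 95.4 and 95.4% of them, against 66.1, 31.2, 94.0 and 88.8% of solitary regions. All 4 lists had a peak in 103 of them (28.1%, 95% Wilson interval 23.7 to 32.9%), 3 lists in 115 (31.3%) and 2 lists in 149 (40.6%). Over all kept regions the share with all 4 lists was 26.5%, and over solitary regions it was 26.0% (23.4 to 28.7%). The number of lists is part of the rule, so these shares are a description.

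The difference in enrichment between neighbouring and solitary regions changed sign between replicates, whereas fragments and background were higher over neighbouring regions in each. The fold at the summit is the caller's ratio of ChIP fragments to its local background after 1 is added to both, which lowers it most where the background is low, as in replicate 2. Its median over neighbouring regions was 6.39 in replicate 1, 6.72 in replicate 2, 6.77 in replicate 3 and 6.23 in replicate 4. Over solitary regions it was 6.29, 6.90, 6.28 and 6.31, so replicates 1 and 3 were higher and replicates 2 and 4 lower. Expressed as a percentile within each list, the difference was 0.58 ± 2.76 points (neighbouring minus solitary, SD, n = 4; exact two-sided sign-flip permutation p = 0.875). It was −3.90 points with peaks of −log10 q of at least 10, with neighbouring regions lower in 4 of 4 replicates (p = 0.13 by the same exact test). It was also below 0 with at least 3 lists (−0.75), with the mean over a region's peaks (−0.59), without replicate 3 (−2.04) and without replicate 4 (−1.20).

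Fragments at the summit, computed back from fold and p-value together, had medians of 24, 14, 40.5 and 22 over neighbouring regions in replicates 1 to 4. Over solitary regions the medians were 19, 11, 33 and 17, lower in each replicate. The local background beneath the summit had medians of 2.71, 1.03, 5.36 and 2.26 fragments over neighbouring regions and 2.18, 0.761, 4.51 and 1.69 over solitary ones. The ratio of neighbouring to solitary medians was 1.26 ± 0.03 for fragments and 1.28 ± 0.08 for background (SD, n = 4), and it was above 1 in 4 of 4 replicates for both. The exact two-sided sign-flip permutation p was 0.13 for each (2 of 16 sign patterns), the smallest that 4 replicates allow, so this design cannot pass a conventional threshold. These values come from the same peak calls that placed the regions. A local background taken over a window wider than the gap can include reads of a partner. Solitary regions have no kept region within 10 kb, so the rule itself may raise the ratio of backgrounds. This was not tested. Without the 2 groups of 12 and 17 regions the ratio of backgrounds was 1.22 ± 0.07; it was 2.04 with the dense blocks kept in and 1.97 with peaks of −log10 q of at least 10.

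**Figure D2:**
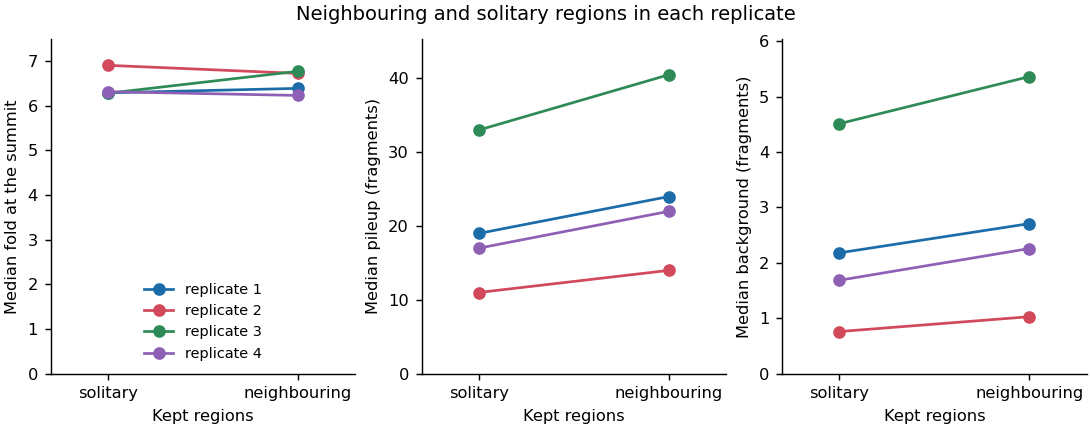
Median fold, median fragments and median background at the summits of solitary and neighbouring kept regions; each line joins the medians of 1 replicate. Fold is nearly level, while fragments and background are higher over neighbouring regions in 4 of 4 replicates.

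The background was highest at the closest partners and in the large groups, sets that share members. A region with a close and a far partner also counts in both gap classes below. Over members with a gap of at most 1 kb it had medians of 3.95, 1.64, 7.32 and 3.55 fragments in replicates 1 to 4. Over those with a gap of 3 to 10 kb the medians were 2.42, 0.887, 4.82 and 2.08, nearer to those of solitary regions but above them in each replicate. Over the 29 members of the groups of 12 and 17 they were 6.51, 2.41, 12.3 and 5.67. Whether reads of a close partner raised these backgrounds was not tested. Median folds were 7.20, 6.74, 7.11 and 6.18 at gaps of at most 1 kb and 6.67, 6.45, 6.97 and 6.16 at gaps of 3 to 10 kb.

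Neighbouring regions were somewhat longer, with quartiles of 468, 647 and 1008 bp against 428, 555 and 789 bp. Of the 367, 15 were longer than 3 kb, against 4 of the 1051 solitary regions and 1.34% of all kept regions. In 29 (7.90%) at least 1 list had several peaks inside the region, against 22 solitary regions (2.09%). Region length follows from the merged peak positions and is given as a description.

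A region found in a single list lay more often near neighbouring than near solitary regions in 3 of 4 replicates. Regions found in a single list (single-list regions) did not count as neighbours in the rule. They come, however, from the same merged peaks, split by the same number of lists. A nearby region makes a kept region neighbouring if another list shares it, and counts as single-list if not. The excess is thus not independent of the rule and is a description. A single-list region lay within 10 kb of 149 of the 367 neighbouring regions (40.6%, Wilson interval 35.7 to 45.7%). The same held for 253 of the 1051 solitary regions (24.1%, 21.6 to 26.7%), and for 28.3% of all kept regions. One single-list region can count for several members of a group. The intervals take regions as independent and so may be too narrow. Taken by the list that held the peak, the shares around neighbouring regions were 1.91% in replicate 1, 0% in replicate 2, 34.9% in replicate 3 and 6.81% in replicate 4. The 0 of 367 allows a share of up to 0.817%. Around solitary regions the shares were 1.24, 0.476, 19.2 and 4.28%. The difference was positive in 3 of 4 replicates, at 4.60 ± 7.48 percentage points (SD, n = 4; exact two-sided sign-flip permutation p = 0.25), and it was 15.7 points in replicate 3, whose list holds 1754 of the 2443 single-list regions. The mean was 2.18 points with at least 3 lists, 8.31 with −log10 q of at least 10 and 20.2 with reciprocal overlap of 50%. Under reciprocal overlap, a peak that overlaps a region by less than 50% can count as a single-list region near it. The 20.2 is therefore not a like measure. It was 7.37 with the dense blocks kept in, 7.03 without replicate 3 and 6.96 without replicate 4. With a list left out, regions kept through that list and 1 other count as single-list regions. The values without a list thus do not show the excess apart from that list. In the main run the difference was 0.67, −0.48 and 2.53 points in replicates 1, 2 and 4. In 27 of the 218 adjacent pairs a single-list region lay between the partners. No such share was computed for consecutive kept regions further apart.

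Partners were next compared with each other. As a reference, 418 consecutive kept regions with a gap of 10 to 100 kb were used. Both partners had peaks in 1 list in 11 adjacent pairs, in 2 lists in 133, in 3 lists in 63 and in all 4 lists in 11. Among the 418 reference pairs the counts were 51, 253, 95 and 19. The same set of lists was found at both partners in 61 of 218 pairs (28.0%, Wilson interval 22.4 to 34.3%), against 24.4% of the reference pairs (20.5 to 28.7%). Where at least 1 partner had all 4 lists, in 112 pairs, the other had 2 lists in 59 (52.7%), 3 in 42 (37.5%) and 4 in 11 (9.82%). In the reference pairs these shares were 55.9, 33.9 and 10.2%. These last shares, and those with the same set of lists, lay within a few percentage points at both distances. Of adjacent pairs with a peak at either partner, 48.4, 13.1, 94.4 and 91.7% had it at both in replicates 1 to 4. In the reference pairs these shares were 49.2, 12.3, 90.4 and 81.8%, so replicate 4 differed more.

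Folds of partners showed little relation, and their backgrounds rose together. Spearman's rho between the folds of the partners was 0.16, −0.11, −0.05 and −0.01 in replicates 1 to 4, over 91, 16, 203 and 200 pairs with peaks in both. In the reference pairs it was 0.00, −0.23, 0.01 and −0.12. The rho between the backgrounds of the partners was 0.42, 0.70, 0.55 and 0.65, against 0.09, −0.10, 0.06 and 0.06 in the reference pairs. These are correlations across sites within a library, given as a description. Peak callers commonly compute the local background over windows that can be wider than these gaps, so partners may share the reads behind it.

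**Figure D3:**
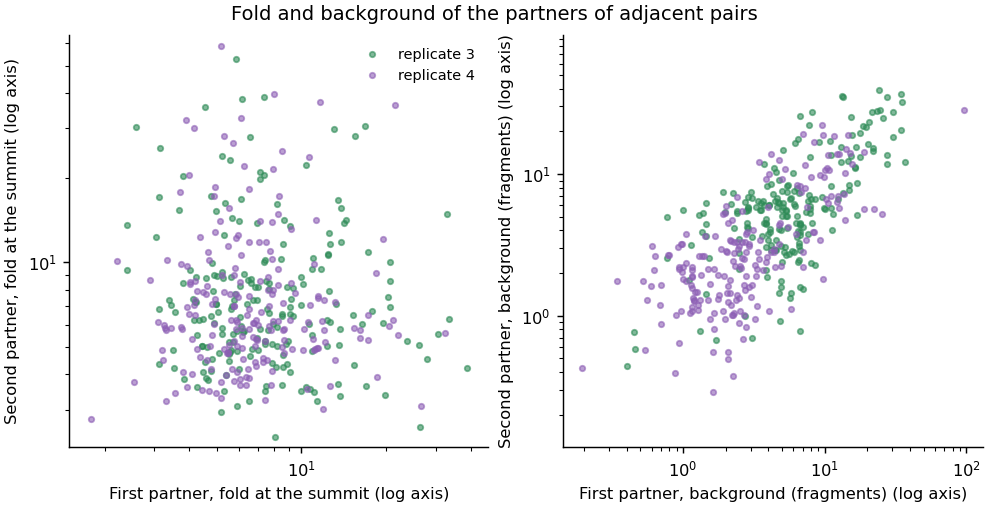
Fold (left) and background (right) of the partner with the lower coordinate against the other partner, on log axes, for adjacent pairs with peaks of replicate 3 or replicate 4 in both. Folds form a cloud without slope (rho −0.05 and −0.01), and backgrounds rise together (rho 0.55 and 0.65).

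Within a pair the stronger partner exceeded the weaker by a median factor of 1.66, 1.76, 1.58 and 1.62 in fold in replicates 1 to 4. For the reference pairs the factors were 1.60, 1.55, 1.65 and 1.55. Of the 74 adjacent pairs with at least 3 lists in both partners, the same partner was the stronger in every such list in 47 (63.5%, Wilson interval 52.1 to 73.6%). The share was 70.2% (61.2 to 77.8%) of 114 reference pairs. Among the 11 pairs with all 4 lists in both partners the count was 7, against 78.9% of the reference pairs of that kind. Over the 207 pairs with both partners in at least 2 lists, the distance between the partners' summits varied between lists by a median of 90 bp (quartiles 43.5 and 226 bp) around a median distance of 3225 bp. In 147 of them (71.0%) it varied by at most 200 bp. Since peaks that overlap were merged, summits of different lists lie close together by construction.

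The 11 pairs with peaks of all 4 lists in both partners were the following, in the order of their mean fold percentile. The first lay on chromosome 1, with partners from 8082794 to 8084374 and from 8084600 to 8086199, the shortest gap of any pair at 225 bp. The first partner was enriched 12.6-, 7.96-, 16.8- and 21.5-fold in replicates 1 to 4 and the second 39.3-, 31.2-, 30.6- and 36.3-fold. The second was higher in each replicate, and the ranges did not overlap. Their summits were 2922, 2817, 2836 and 2913 bp apart, so edges that nearly touch came with summits almost 3 kb apart. A further region before them, 8079402 to 8081027, had folds of 6.56, 4.85, 6.11 and 7.92. Backgrounds of the group of 4 to which these belong were 0.849 ± 0.090 times those of solitary regions (SD, n = 4). The depth of the underlying sequence was not measured.

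The second pair lay on chromosome 2, with partners from 22572416 to 22573006 and from 22579204 to 22580147. The first was enriched 8.29-, 9.29-, 6.13- and 8.54-fold and the second 33.5-, 20.2-, 38.1- and 24.8-fold. The second partner was higher in each replicate, and the 4 distances between summits lay within 50 bp, from 6925 to 6975 bp. The third pair, on chromosome 6 from 16333222 to 16335713, was less uneven: the first partner was enriched 6.46-, 6.47-, 13.9- and 10.6-fold and the second 12.3-, 12.1-, 11.8- and 23.6-fold. Here replicate 3 had the order reversed.

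The fourth pair, on chromosome 1 from 4181306 to 4184258, had partners of nearly equal mean fold, 10.5 ± 2.60 and 10.6 ± 3.36 (SD, n = 4), with summits 2163 to 2280 bp apart. The fifth, on chromosome 4 from 19980497 to 19986614, had a stronger first partner in each replicate, 16.1 ± 4.67 against 8.44 ± 3.14. The sixth, on chromosome 6 from 27832104 to 27839455, had means of 10.4 ± 2.77 and 9.45 ± 5.01, with each partner the stronger in 2 replicates. At its second partner the background was 0.39, 0.17, 0.92 and 0.49 fragments in replicates 1 to 4 and the summits held 11, 5, 31 and 10 fragments, so its fold rests on few fragments. The seventh joins the first partner of the leading pair to the region before it.

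The remaining 4 had gaps of 778, 462, 265 and 1661 bp and lay on chromosomes 3, 12, 4 and 2. The first 3 of these sat on higher backgrounds: at their first partners the background was 13.6, 6.67, 35.3 and 11.6 fragments on chromosome 3, 8.04, 3.56, 27.4 and 19.0 on chromosome 12, and 7.77, 3.17, 13.1 and 9.22 on chromosome 4. The first partner was the stronger in all 4 replicates on chromosomes 3 and 4 and in 3 on chromosome 12. On chromosome 2, from 20599823 to 20603200, the second partner was the stronger in all 4, at 9.36 ± 2.18 against 4.79 ± 0.80.

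**Figure D4:**
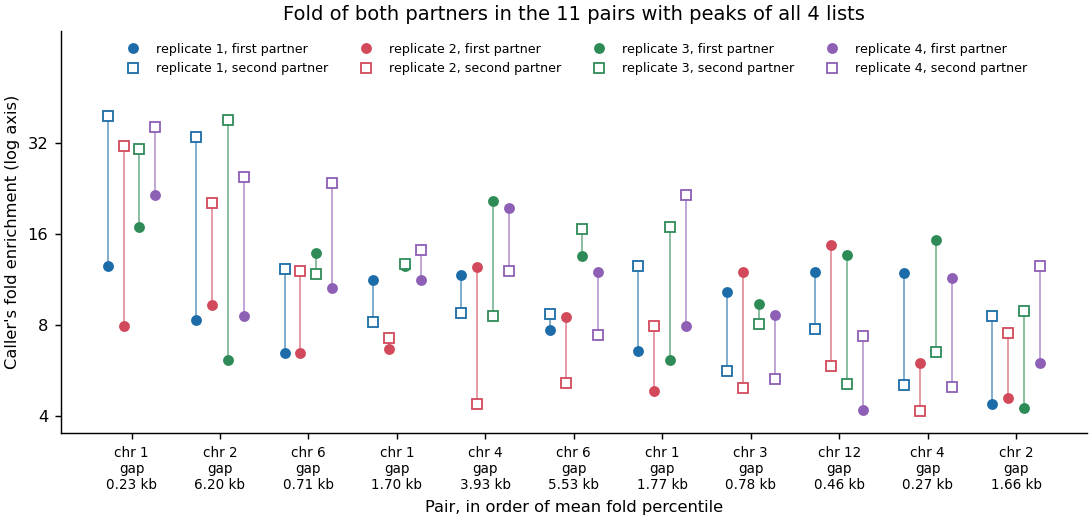
Fold of both partners (filled circle, lower coordinate; open square, higher coordinate) in the 11 pairs with peaks of all 4 lists in both, on a log axis, with colours for replicates and the gap given under each pair. The partner order is the same in 4 of 4 replicates in 7 pairs, and the folds run from 4.16 to 39.3.

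The 5 members with all 4 lists and the highest mean fold percentile are described here. They were chosen after their values were seen, so that their partners were weaker follows from the choice. The first spanned 1869854 to 1871354 of chromosome 1, with enrichments of 61.0-, 30.9-, 52.7- and 58.9-fold. Its partner, 1808 bp before it, had no peak in replicate 2 and folds of 4.20, 5.84 and 5.18 in replicates 1, 3 and 4. Another spanned 22662363 to 22663381 of chromosome 5, with enrichments of 30.4-, 29.8-, 38.8- and 32.4-fold. Its nearest partner had folds of 6.74, 4.20 and 5.63 in replicates 1, 3 and 4 and no peak in replicate 2. A further one spanned 21859006 to 21860730 of chromosome 10, with enrichments of 36.4-, 23.7-, 33.4- and 31.5-fold. Its partner reached 4.92 and 6.28 in replicates 1 and 3 and had no peak in replicates 2 and 4. The partners' summits held 8 to 29 fragments in these 3 cases. The other 2 were the second partner of the leading pair and the longest member of all, described with its group.

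Groups of 4 or more linked regions numbered 15 and held 84 members over spans of 7.41 to 44.6 kb. Relative to solitary regions their background ran from 0.709 to 4.59 times, as the mean over the replicates with peaks. It was above 2 in 7 groups and below 1 in 3. The largest group, on chromosome 12 from 5609960 to 5654568, held 17 regions over 44.6 kb. Replicates 3 and 4 had peaks in all 17 of them, replicate 1 in 7 and replicate 2 in 4. Only 4 of its regions were found in all 4 lists. The region at 5613957 to 5615377 reached folds of 26.9, 15.8, 19.8 and 26.6, the highest of the group in replicates 1, 2 and 4, against group medians of 7.18, 8.64, 7.11 and 6.12. The background of the whole group was 2.10 ± 0.43 times that of solitary regions (SD, n = 4).

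The second largest, on chromosome 6 from 23564628 to 23592177, held 12 regions in 27.5 kb. Replicates 3 and 4 had peaks in all 12, replicate 1 in 6 and replicate 2 in 3. Group medians of fold were 5.18, 5.98, 5.70 and 5.85 and its highest folds 39.6, 24.95, 23.8 and 20.4, all at the region from 23579707 to 23581473. The background of the whole group was 4.14 ± 0.86 times that of solitary regions. The other 2 regions with all 4 lists had folds of 4.04, 4.31, 8.88 and 7.81 and of 5.86, 5.98, 8.78 and 7.54. Without the groups of more than 5 regions, which are this group and the largest group, the number of members was 338.

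On chromosome 10 from 20451801 to 20484663, 5 regions nearly tiled a stretch of 32.9 kb, of which they covered 95.1%. The last of them, from 20471673 to 20484663, was 12991 bp long, the longest of all members. It was enriched 45.1-, 28.0-, 35.8- and 31.9-fold, with 410, 115, 521 and 296 fragments at the summit. Inside it replicate 3 had 1 peak, while replicates 1, 2 and 4 had 5, 4 and 5. The background of the group was 4.59 ± 1.14 times that of solitary regions. The gaps here, 270 to 586 bp, thus divide a stretch that was nearly continuous in the peaks of replicate 3, while replicates 1 and 2 had shorter peaks in it.

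A group on chromosome 2 from 21261768 to 21298231 was evenly spaced. Its 5 regions were 8506 to 8666 bp apart. In replicate 1 the steps from summit to summit were 9053, 9055, 9035 and 8985 bp, a mean of 9032 ± 32.6 bp (SD, n = 4 steps). In replicate 4 they were 9031, 9042, 8766 and 9278 bp, a mean of 9029 ± 209 bp. Replicate 4 had a further peak 9056 bp before the first, outside the group since no other list had it. The coefficient of variation of the steps between strongest summits was 0.692% in this group and 33.8 to 113% in the other 14 groups of 4 or more.

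The 5 evenly spaced regions had folds of 4.82 to 7.68 in replicates 1 and 4. They were enriched 5.70-, 7.68-, 6.81-, 6.67- and 5.62-fold in replicate 1, with 13, 18, 15, 16 and 11 fragments at the summits. The exact 95% Poisson intervals of the lowest and the highest, 5.49 to 19.7 and 10.7 to 28.4 fragments, overlapped. Intervals on so few fragments are wide, so the overlap does not show equal strength. In replicate 4 they were enriched 5.92-, 6.16-, 5.49-, 4.82- and 7.13-fold, with 10 to 14 fragments. Replicate 3 had peaks in 2 of the 5, and replicate 2 in 1. The background was low, at 0.709 ± 0.106 times that of solitary regions (SD, n = 4), unlike that of the large groups. The even spacing was noticed after the values were seen, and whether the underlying sequence is repeated was not tested.

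**Figure D5:**
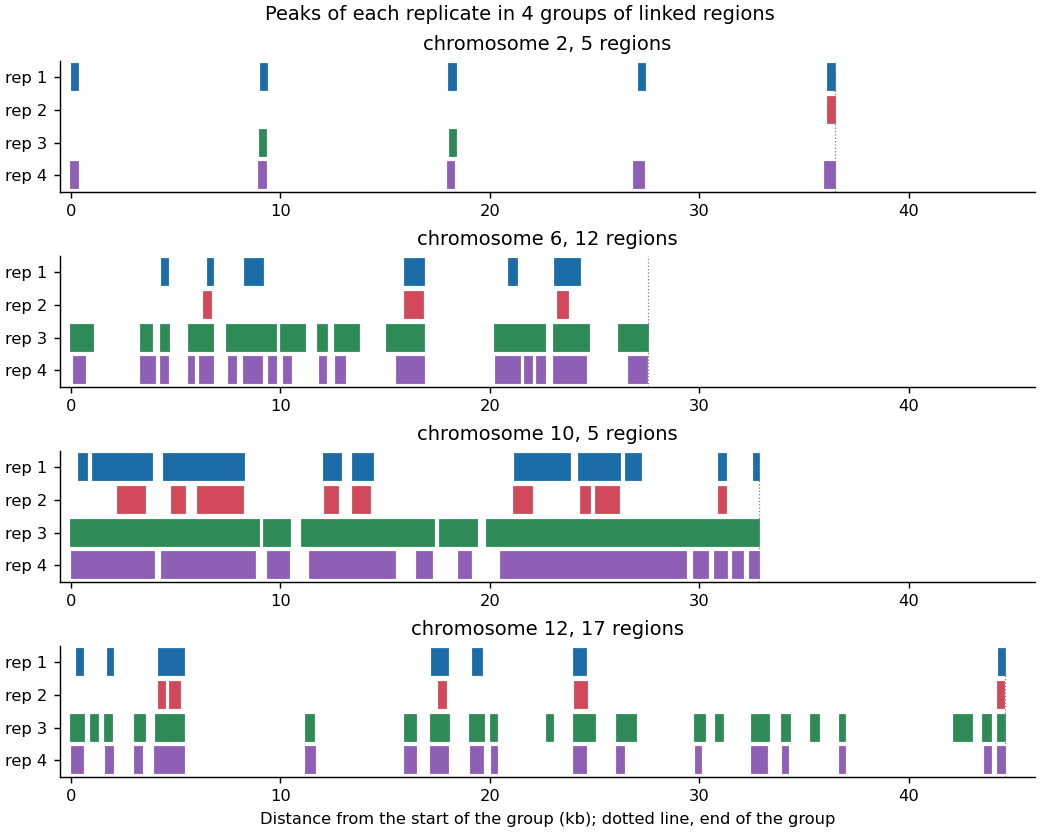
Peaks of each replicate (coloured blocks, 1 row per replicate) in 4 groups of linked regions, by distance in kb from the start of the group; peaks found in a single list are drawn too. The 5 regions on chromosome 2 are evenly spaced at about 9 kb, those on chromosome 10 cover 95.1% of their stretch, and the groups of 12 and 17 regions carry peaks of replicates 3 and 4 throughout.

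The other groups of 4 or more fell between these. On chromosome 12 from 8529984 to 8545506 and on chromosome 4 from 32873384 to 32892448, groups of 4 had backgrounds 4.42 ± 0.98 and 4.11 ± 1.03 times those of solitary regions, with highest folds of 14.7 and 15.2. On chromosome 5 from 22647443 to 22665774, a background of 1.05 ± 0.35 times came with a highest fold of 38.8. On chromosome 4 from 30172825 to 30189959, the background was 0.845 ± 0.129 times that of solitary regions, and the highest fold was 37.7 in replicate 1 but 5.53, 14.2 and 11.5 in replicates 2 to 4. On chromosome 6 from 12527946 to 12536185, the highest folds were 15.8, 8.66, 16.3 and 28.0. On chromosome 7 from 23000298 to 23013452, 5 regions had highest folds of 12.3, 5.30, 17.2 and 17.2. The groups of 4 that began at 31414124 on chromosome 2, 23639607 on chromosome 4, 22835334 on chromosome 8 and 13371601 on chromosome 12 stayed below 12-fold in every list, and the last 3 of these had no peak of replicate 2.

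Across chromosomes, the share of kept regions that had a neighbour ran from 13.3% on chromosome 11 (6 of 45) to 45.9% on chromosome 12 (45 of 98). Without the groups of 12 and 17 it was 34.6% on chromosome 12, still the highest, and 18.2% on chromosome 6. On the 5 longest lists of kept regions, those of chromosomes 1 to 5, it lay between 22.6 and 25.9%.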

How the data were processed

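Each ChIP replicate has 1 deposited peak list, called on that replicate alone. Per the submitters' processing notes, the authors named MACS2 1.4.2 and Bowtie 0.12.8 beside deepTools 3.5.4 and bcl2fastq 2.2, on build IRGSP-1.0; control and duplicate handling are not stated there. Each deposited fold is a ratio of the summit pileup to the local background with 1 added to both, the deposited −log10 p and −log10 q are the caller's own, and the deposited score repeats the −log10 q. The lowest −log10 q was 1.30. Fragments and background were recovered as the whole number that fits the fold and the Poisson tail within 0.002, which succeeded for all 7352 peaks. A region's value in a list is that of its peak with the highest fold, and percentiles are ranks by fold within a list. Summit pileups of members ran from 4 to 521 fragments. Intervals cover counting error only.

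Fold and background were compared between neighbouring and solitary regions as 1 difference per replicate, by an exact two-sided sign-flip permutation test. The named regions are the 10 pairs with all 4 lists in both partners and the highest mean fold percentile (of only 11 such pairs, so all are given), the 3 of them with the shortest gap, groups of 4 or more, and 3 pairs on each side of the limit. Its part on genes and motifs needs a genome of the same build and was not run. Members and lists were chosen with earlier results of these data known. The regions in single lists, the reference pairs and the strongest members were added after the data were seen. The steps were tested on simulated data. Software was scipy 1.17.1, pandas 2.3.3, numpy 2.4.6 and Python 3.11.15.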

Additional observations from a re-analysis of the deposited data

Results flagged for a closer look

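Of 48 values with 4 replicates each, 6 had a replicate beyond Dixon's 95% critical value. About 1 in 20 independent values passes it by chance. At the second partner on chromosome 6 from 16334746, the fold was 23.6 in replicate 4 and 11.8 to 12.3 in the others. The summit distance of the pair on chromosome 4 from 32883414 was 3324 bp in replicate 4 and 4381 to 4402 bp in the others, and that of the pair on chromosome 3 from 31811526 was 4865 bp in replicate 4 and 6265 to 6498 bp in the others. That of the pair on chromosome 4 from 19980497 was 4661 bp in replicate 4 and 4728 to 4741 bp in the others. That of the pair on chromosome 1 from 8079402 was 3393 bp in replicate 2 and 3103 to 3130 bp in the others. The median ratio of the higher to the lower background of the partners was 1.33 in replicate 2, over 16 pairs, and 1.63 to 1.68 in the others.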

How the results depend on the processing

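The 367 members became 152 with peaks of at least 3 lists, 125 with a −log10 q of at least 10 and 175 to 360 with 1 replicate left out, and 279 to 547 under the other alternatives. The difference in fold percentile of 0.58 points changed sign to −0.75 with at least 3 lists, −3.90 with a −log10 q of at least 10, −0.59 with the mean over a region's peaks, −2.04 without replicate 3 and −1.20 without replicate 4; leaving out 1 replicate gave −2.04 to 1.05. The cause was not tested. The ratio of backgrounds stayed above 1 under every alternative run, from 1.21 to 2.04. The share of members with all lists moved from 28.1% to 44.1% with at least 3 lists, 20.6% with reciprocal overlap of 50%, and 32.9 to 56.9% with 1 replicate left out, where 3 lists suffice. The share of pairs with the same stronger partner ran from 40 to 71.4%, within the interval of the 7 in 11. The mean excess of single-list regions stayed positive, from 2.18 to 20.2 points, but some settings changed which regions count as single-list. In the main run it was 0.67, −0.48, 15.7 and 2.53 points in replicates 1 to 4. No paired analysis was possible because the groups that share replicate numbers are ChIP and input, and the input samples were not analysed here; neighbouring and solitary regions were compared within each replicate. Replicate 2, with peaks in both partners of 16 pairs, limits every statement that needs all 4 lists.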
